A study of Sus scrofa with 12 samples.

Results

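The 10 genes described here encode the enzymes that carry fructose 6-phosphate to lactate in skeletal muscle: PFKM, ALDOA, TPI1, GAPDH, PGK1, PGAM2, ENO3, PKM, LDHA and LDHB. They were taken by symbol as steps of 1 pathway, by a rule that uses no measured value although earlier results of these data were known, and each was found as 1 row among the 25880 genes of the count tables. All 10 passed the filter on low counts, which kept 13373 genes. The RNA came from the longissimus dorsi of 12 Iberian pigs, 1 library per pig, all castrated males of a single closed population that were fattened free-range on acorns and grass. The High MB group held the 6 pigs with a high breeding value for myoglobin content, and the Low MB group the 6 pigs with a low one. No treatment, transgene or deletion was involved. Myoglobin in the muscle averaged 2.48 ± 0.0657 mg/g in the former and 1.39 ± 0.147 mg/g in the latter (SD, n = 6 each).

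Glycolysis splits glucose into pyruvate and yields ATP without oxygen, and lactate dehydrogenase turns pyruvate into lactate when oxygen runs short. Fast-twitch fibers depend on this route and are pale, whereas slow-twitch fibers burn fuel in mitochondria and hold more myoglobin. Most steps are catalyzed by isozymes from several genes, and skeletal muscle uses a muscle form at the phosphofructokinase (PFKM), phosphoglycerate mutase (PGAM2) and enolase (ENO3) steps.

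Total gene counts per pig lay between 38914271 and 91318334. They fell into 2 classes. Deep libraries, with at least 50000000 counts, were those of Low MB pigs 1, 5 and 6 together with High MB pigs 4 and 6, and the largest of the 7 standard libraries held 40001432. The deep libraries also had a higher share of reads with several alignments, 5.91% to 6.44% against 4.24% to 5.56%, and a lower share of unaligned reads, 1.64% to 1.80% against 1.97% to 2.35%. The labels do not give the lane of a library. Of 8 skeletal muscle markers, 7 had a row and all of these were tested, with a summed level of 41118 CPM (counts scaled to the size of the library) or more in every pig. Bulk RNA cannot tell fewer fibers of a type from less RNA per fiber, for any difference given here.

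Together the 10 genes took a large part of the counted reads. Their share of all gene counts was 7.14% ± 1.44 in the High MB group (from 4.97% to 9.45%) and 8.0% ± 1.36 in the Low MB group (from 6.25% to 10.1%, SD, n = 6). The largest contributor was ALDOA, the aldolase that cleaves fructose 1,6-bisphosphate, with a mean of 23254 CPM over the 12 pigs. GAPDH, which oxidizes glyceraldehyde 3-phosphate, followed with 20606 CPM and ENO3, the muscle enolase, with 11702 CPM.

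Per kilobase of mRNA, which allows levels of different genes to be set side by side, the order was GAPDH with 15129 CPM per kb, ALDOA with 14223 and ENO3 with 8160. LDHA, the lactate dehydrogenase subunit that predominates in fast muscle, had 2834 CPM per kb and TPI1, the triose phosphate isomerase, 1957. PKM, the pyruvate kinase, had 1918 CPM per kb, PGAM2 1426, PFKM 1106 and PGK1, the phosphoglycerate kinase, 1049. Among these 9 genes, every pair of neighbors in the order had ranges that overlapped over the 12 pigs. LDHB, the subunit that predominates in heart, stood apart at 0.682 CPM per kb, with its highest pig at 1.33 and the lowest PGK1 value at 741 CPM per kb. The LDHB value may be too low, because reads that also fit a nearly identical second locus were not counted. The lengths are medians of the RefSeq mRNAs of each gene, so this order depends on which mRNAs are annotated. For PGAM2 the median was 2189 bases, but its curated mRNA has 816 bases, a length that would place PGAM2 higher in the order.

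**Figure D1:**
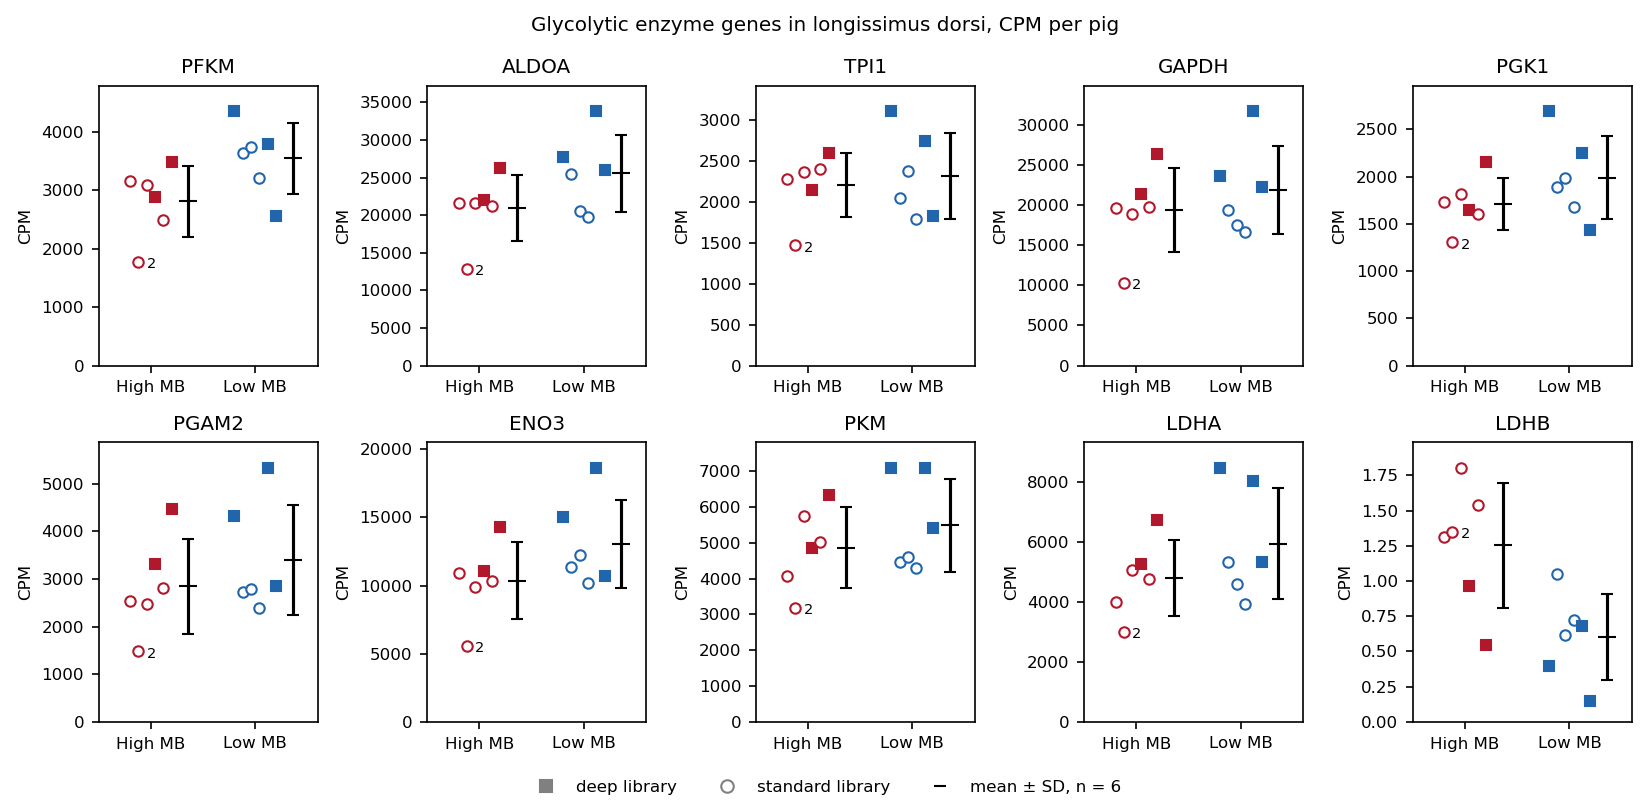
CPM (vertical axes, from 0) of each of the 10 genes in each pig, for the High MB and Low MB groups, with deep libraries as filled squares, standard libraries as open circles, and the mean ± SD of the 6 pigs of a group in black. High MB pig 2, marked 2, is the lowest of the 12 pigs in every panel except LDHB, where the 4 High MB standard libraries lie above all Low MB pigs.

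The sequence before the start of 1 mRNA is printed for 4 of these genes. Their levels varied together over the pigs, and a link of this to the motif searched here was not tested. The motif ACGTG, the core of the hypoxia response element and of many E-boxes, was searched on both strands in the 300 bases before the start of 1 RefSeq mRNA of each gene in Sscrofa11.1, a curated mRNA where there is one and otherwise the one that starts farthest upstream. For PFKM, PGAM2, LDHA and GAPDH other annotated mRNAs start farther upstream, so that these windows lie inside the gene. Apart from LDHB, whose locus is uncertain, 4 of the 9 genes held it (GAPDH, LDHA, PGK1 and PKM), against 21.1% of all 20663 windows of this length. The palindrome CACGTG counts on both strands. PGK1, PKM and GAPDH are printed as genes with the motif and ENO3 as one without, each 5′ to 3′ on the gene's strand, with ACGTG or its reverse complement CACGT in capitals. The windows are chrX:62187172-62187471 (+) for PGK1, chr7:60971507-60971806 (+) for PKM, chr5:64134021-64134320 (-) for GAPDH and chr12:51959992-51960291 (-) for ENO3.
PGK1: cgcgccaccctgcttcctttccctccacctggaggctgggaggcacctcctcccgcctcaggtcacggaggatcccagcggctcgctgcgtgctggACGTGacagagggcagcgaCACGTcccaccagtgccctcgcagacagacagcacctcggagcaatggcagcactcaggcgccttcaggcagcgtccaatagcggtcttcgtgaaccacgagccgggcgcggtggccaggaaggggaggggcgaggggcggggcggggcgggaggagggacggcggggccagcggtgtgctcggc
PKM: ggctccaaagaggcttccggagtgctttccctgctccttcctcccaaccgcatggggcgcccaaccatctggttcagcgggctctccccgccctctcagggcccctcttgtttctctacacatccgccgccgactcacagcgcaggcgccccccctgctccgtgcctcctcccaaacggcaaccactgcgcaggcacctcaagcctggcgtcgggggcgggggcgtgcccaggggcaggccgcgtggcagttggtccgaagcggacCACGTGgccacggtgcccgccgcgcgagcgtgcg
GAPDH: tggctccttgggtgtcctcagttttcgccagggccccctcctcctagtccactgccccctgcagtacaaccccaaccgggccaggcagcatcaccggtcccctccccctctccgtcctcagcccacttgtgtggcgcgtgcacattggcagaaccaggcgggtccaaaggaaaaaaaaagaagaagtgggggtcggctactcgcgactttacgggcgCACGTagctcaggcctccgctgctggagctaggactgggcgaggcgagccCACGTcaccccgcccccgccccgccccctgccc
ENO3: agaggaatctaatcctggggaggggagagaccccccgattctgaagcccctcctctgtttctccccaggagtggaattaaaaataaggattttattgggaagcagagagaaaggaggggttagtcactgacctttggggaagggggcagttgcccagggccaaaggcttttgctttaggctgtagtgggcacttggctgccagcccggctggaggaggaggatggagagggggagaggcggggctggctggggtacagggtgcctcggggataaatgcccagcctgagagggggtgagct
The capitals show 2 separate matches in PGK1 and in GAPDH and 1 palindrome in PKM. No match was found for ALDOA, ENO3, PFKM, PGAM2 and TPI1, which says only that these letters are not in these windows.

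The main comparison asked whether the enzymes differed between pigs of high and low breeding value for myoglobin. None of the 10 genes was called, which required an adjusted p under 0.10 and an absolute log2 fold change (log2 FC) over 0.58 in edgeR. Neither was any other gene, so that the background was 0%, with 0.563 as the smallest adjusted p. DESeq2 called 29 genes, none of them among the 10, which is 0.201% of the genes it tested. The log2 FC of High MB over Low MB was below 0 for 9 of the 10 enzymes, against 53.1% of all genes tested, and their median was -0.24 against -0.02. These 9 genes were correlated over the pigs, so that their signs are not independent of each other. At an unadjusted p under 0.05, which 8.46% of all genes reached, 0 of the 9 lower genes passed in edgeR or DESeq2. The single gene that passed it was LDHB, which was higher in the High MB group. No enzyme had groups that did not overlap. Only 0.426% of all genes did, so that 0 among 10 is no result about the enzymes.

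**Figure D2:**
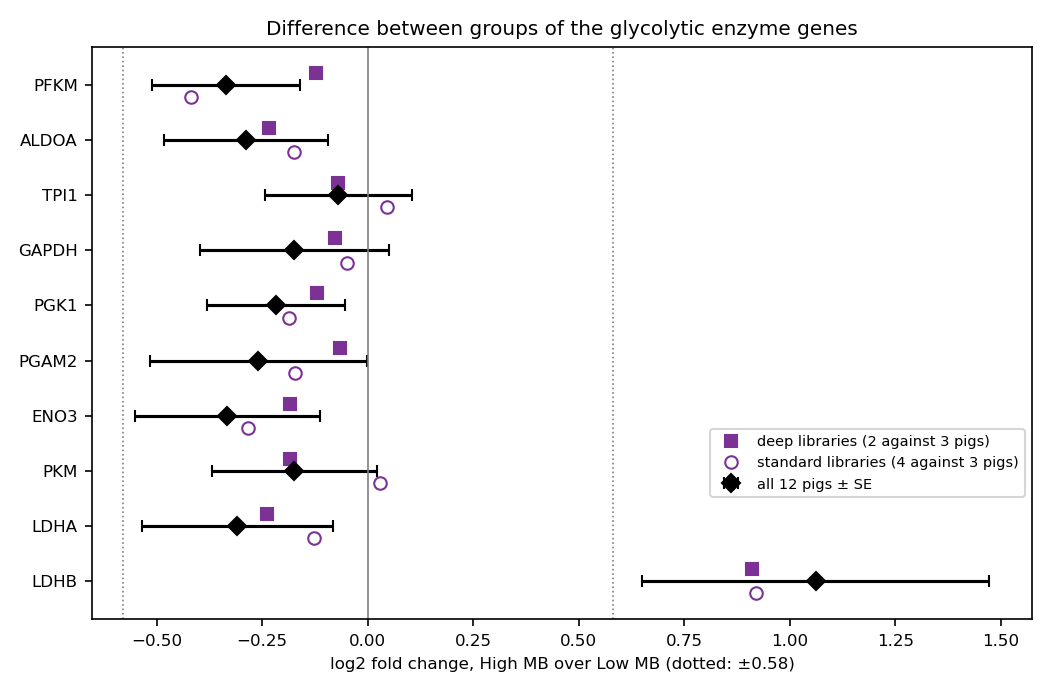
Log2 fold change of High MB over Low MB for each gene in all 12 pigs (black, ± SE) and, as points without error, in each library depth class by itself. Values of 9 genes lie between -0.34 and -0.07 in all pigs, inside the dotted limits of ±0.58, and LDHB lies at 1.06.

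PFKM (ENSSSCG00000021129, chr5:78475473-78525052, plus strand), which catalyzes the committed and most tightly regulated step, had the smallest p of the 9. Its level was lowest at 1772, median 2986 and highest at 3491 CPM in the High MB group, and lowest at 2560, median 3696 and highest at 4349 CPM in the Low MB group. The groups overlapped, with 4 of the 6 Low MB pigs above every High MB pig. The log2 FC was -0.34 (SE 0.18, edgeR p = 0.0755, adjusted p = 0.606), and an exact permutation test on log2 CPM, two-sided, gave p = 0.0714. The value was -0.12 among deep libraries alone and -0.42 among standard ones. Without High MB pig 6 or without Low MB pig 6, PFKM passed an unadjusted p under 0.05 in edgeR, and in neither case was it called.

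In the steps that follow, ALDOA had 20938 ± 4381 CPM in the High MB group and 25570 ± 5114 CPM in the Low MB group (SD, n = 6). Its log2 FC was -0.29 (SE 0.19), with an adjusted p of 0.685 in edgeR. TPI1 and GAPDH were closer between the groups, with log2 FC of -0.07 (SE 0.17) and -0.17 (SE 0.22). TPI1 was on the other side of 0 among the standard libraries, at 0.05. PGK1, which makes the first ATP of the pathway, had a log2 FC of -0.22 (SE 0.16). None of these 4 genes had an unadjusted p under 0.05 in edgeR.

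Of the enzymes of the lower part, ENO3 had 10360 ± 2812 CPM in the High MB group and 13043 ± 3233 CPM in the Low MB group (SD, n = 6). Its log2 FC was -0.33 (SE 0.22, adjusted p = 0.677 in edgeR). PGAM2, which moves the phosphate before the enolase step, had a log2 FC of -0.26 (SE 0.26), and PKM, which makes the second ATP, -0.17 (SE 0.20). PKM was at 0.03 within the standard libraries. LDHA had 4799 ± 1258 CPM in the High MB group and 5942 ± 1863 CPM in the Low MB group (SD, n = 6), with a log2 FC of -0.31 (SE 0.23). Of the 9, PGAM2 varied most between the pigs of a group, with a coefficient of variation of 34.9% in the High MB and 34.1% in the Low MB group.

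LDHB went the other way, at a very low level. Its level was lowest at 0.548, median 1.33 and highest at 1.80 CPM in the High MB group, and lowest at 0.145, median 0.650 and highest at 1.05 CPM in the Low MB group. Here 4 of the 6 High MB pigs lay above every Low MB pig and 2 of the 6 Low MB pigs below every High MB pig, so the ranges still overlapped. The log2 FC was 1.06 (SE 0.41, edgeR p = 0.0214, adjusted p = 0.563), the DESeq2 adjusted p was 0.313, and the exact two-sided permutation p was 0.0238. Taken alone, deep libraries gave 0.91 and standard libraries 0.92. Without High MB pig 3 its unadjusted p in edgeR was no longer under 0.05.

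The LDHB value rests on 9 to 68 counts per pig and on an uncertain locus. RefSeq places LDHB at chr5:51810932-51831218, with 8 exons on the plus strand, and gives the same symbol to a locus of 1 exon at chr2:12988754-12990033 on the minus strand. The mRNA of the chromosome 5 locus matched the chromosome 2 locus with 99.1% identity over 1282 bases. The authors' counting left out reads with several alignments, and the tables used here do not say to which locus the row ENSSSCG00000032557 belongs. The LDHB level is therefore uncertain, and it may be too low because reads that fit both loci were not counted. By how much was not tested. The deep libraries had a higher share of reads with several alignments and a lower LDHB level. A link between these was not tested. None of the other 9 genes had a second place in the genome with at least 95% identity over at least 300 bases.

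High MB pig 2 was the lowest of all 12 pigs for 9 of the 10 genes. For GAPDH it had 10282 CPM, whereas the other 11 pigs had at least 16622. Its mean standardized level over the 10 genes was -1.83, and the next lowest pig, Low MB pig 4, was at -0.53. The same pig had the lowest summed level of the fast fiber markers (30558 CPM) and of the skeletal muscle markers (41118 CPM). It had the highest of the macrophage markers, 109 CPM against at most 55.4 in the other 11 pigs. It also had 355 CPM of HK2, the inducible hexokinase that starts glycolysis, against 26.4 to 92.9 in the other 11 pigs. Without it the median log2 FC of the 10 genes was -0.12, and TPI1 was at 0.05, GAPDH at -0.02, PKM at -0.06, PGAM2 at -0.10 and PGK1 at -0.13. In the same fit ALDOA was at -0.16, ENO3 and LDHA at -0.18, PFKM at -0.21 and LDHB at 1.05. Other single pigs also moved these values by over 1.5 times. Without Low MB pig 5 the median was -0.13, with GAPDH at -0.04, PGAM2 at -0.08, PKM at -0.09 and both ENO3 and LDHA at -0.20. Without Low MB pig 1, TPI1 was at 0.03, PKM at -0.09, PGK1 at -0.11 and LDHA at -0.18. Without High MB pig 6, PGAM2 was at -0.43, GAPDH at -0.28 and PKM at -0.26. No enzyme was called in any of these fits, and the part of cell makeup or RNA quality in these values was not tested.

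Levels were also compared between the library depth classes. This comparison was added after the values had been seen, in an edgeR fit with depth class and group together. In it, 9 of the 10 enzymes were higher in the deep libraries, against 48.6% of all genes, with a median log2 difference of 0.40 against -0.01. None was called, nor was any gene (0%, smallest adjusted p 0.137), and 5 had an unadjusted p under 0.05 with a higher level in the deep libraries, which 5.78% of all genes did. Counting LDHB as well, 6 of the 10 had an unadjusted p under 0.05 in either direction, against 13.9% of all genes. These genes were correlated over the pigs, so that such counts are not of independent genes. The 5 higher genes were PGAM2 at 0.70 (SE 0.19, adjusted p = 0.188 in edgeR), LDHA at 0.59 (SE 0.17, adjusted p = 0.223), GAPDH at 0.51 (SE 0.19), PKM at 0.44 (SE 0.16) and ENO3 at 0.43 (SE 0.19). LDHB was lower in the deep libraries, at -0.97 (SE 0.36, adjusted p = 0.287 in edgeR), and 8.08% of all genes were lower at an unadjusted p under 0.05.

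For GAPDH (ENSSSCG00000000694, chr5:64129678-64135194, minus strand) the 5 deep libraries had 21357 to 31639 CPM and the 7 standard libraries 10282 to 19693 CPM. For PGAM2 (ENSSSCG00000016720, chr18:48693832-48712787, plus strand) they had 2856 to 5334 and 1481 to 2810 CPM. In both genes every deep library lay above every standard library, which 0.449% of all genes tested showed, and the exact permutation p of 0.00126 is the smallest that 5 against 7 can give. GAPDH and PGAM2 were correlated over the pigs (Pearson's r 0.95 on log2 CPM), so they do not count as independent. Leaving out each pig in turn kept the median log2 difference of the 10 genes between 0.32 and 0.45. Without High MB pig 3, 19 genes had an adjusted p under 0.10 in edgeR, none of them among the 10. Whether this difference came from the sequencing or from the pigs cannot be told apart, because the depth classes hold different animals. With depth class in the fit, the median log2 FC of High MB over Low MB was -0.17, still with 9 of 10 below 0, against 53.3% of all genes. Single values moved by over 1.5 times, to -0.02 for TPI1, -0.08 for both GAPDH and PKM, -0.15 for PGAM2 and -0.19 for LDHA. None of these 9 had an unadjusted p under 0.05 in that edgeR fit. Only 3.97% of all genes were lower at that limit, so that 0 among 9 is no result about the enzymes. The difference between groups was not shown to depend on depth class, with 0.481 as the smallest unadjusted p of the interaction among the 10 genes in edgeR.

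**Figure D3:**
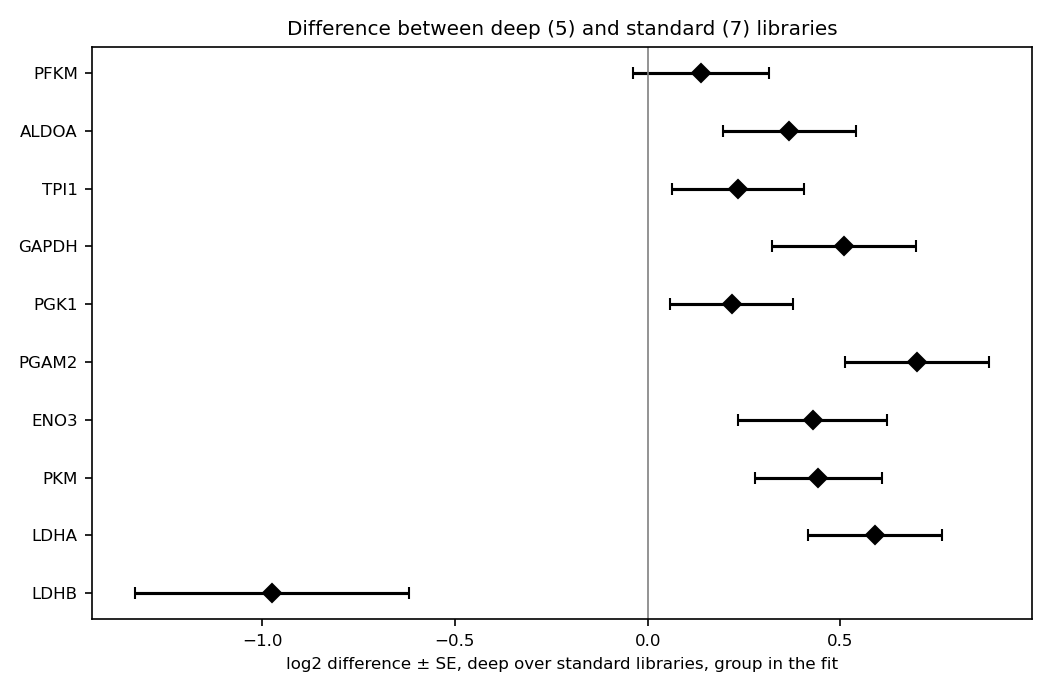
Log2 difference of the deep (5) over the standard (7) libraries for each gene, ± SE, from an edgeR fit that also holds the breeding value group. PGAM2 lies highest at 0.70 and LDHB lowest at -0.97.

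The enzyme genes were tightly correlated over the 12 pigs. Among the 36 pairs of the 9 genes other than LDHB, Pearson's r of log2 CPM ran from 0.66 (PFKM and PKM) to 0.96 (ALDOA and GAPDH), with a median of 0.85. LDHB had r from -0.46 to -0.09 with the others. These values describe libraries that share depth class, High MB pig 2 and scaling factors, and no p is given for them.

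**Figure D4:**
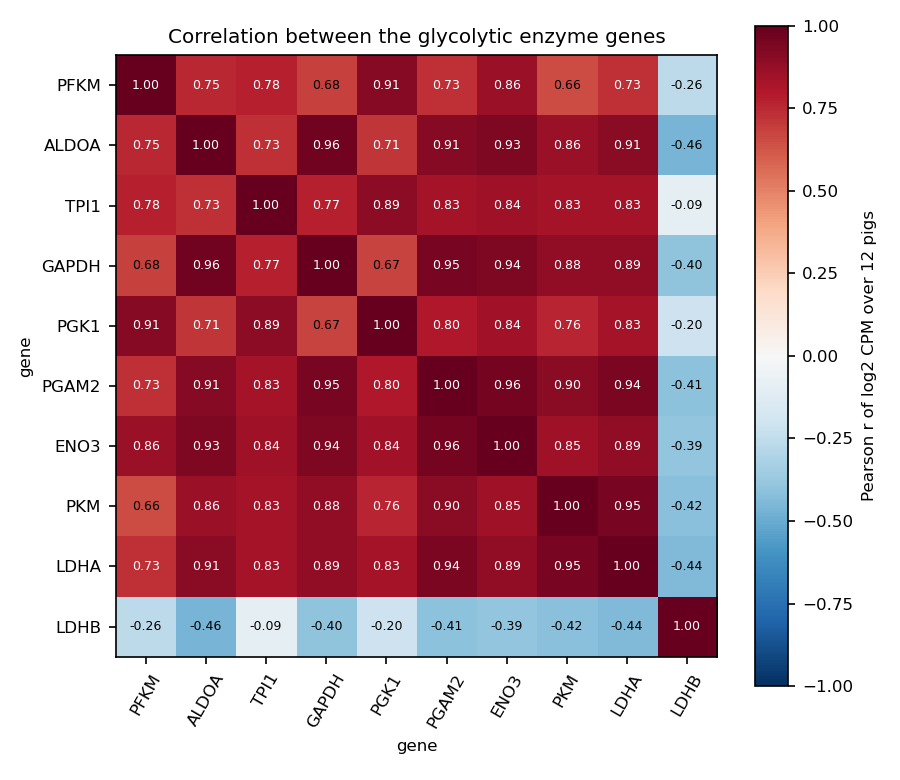
Pearson's r of log2 CPM over the 12 pigs for each pair of the 10 genes, on a color scale from -1 to 1. All pairs of the first 9 genes are at 0.66 or higher, and the LDHB row and column are below 0.

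Genes outside the set were ranked by Pearson's r with the mean standardized log2 CPM of the 10 genes, among 7421 genes with a mean log2 CPM of at least 3. The median r was -0.01, and 314 genes (4.23%) were above 0.8. The highest was MAP2K2, a kinase of the MAPK cascade, at 0.98, followed by VPS51 and PYGM at 0.95. PYGM is the muscle glycogen phosphorylase, which releases glucose units from glycogen, and its mean level was 10885 CPM. AK1, the adenylate kinase of muscle, NEURL1, SEPTIN1, UBXN1 and the genes ENSSSCG00000004497, ENSSSCG00000004814 and ENSSSCG00000008981, for which the tables give no symbol, made up the other top ranks at 0.94 to 0.95. The lowest values were those of ENSSSCG00000005453 at -0.95, ATOSB and SRXN1 at -0.92, and AMPD3, an AMP deaminase, and SFPQ at -0.91.

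For aldolase, enolase, phosphoglycerate mutase and phosphofructokinase, the muscle isozyme took nearly all counts of the isozymes compared in both groups. ALDOA took 99.94% ± 0.031 of the ALDOA and ALDOC counts in the High MB group and 99.97% ± 0.019 in the Low MB group. For ENO3 among ENO1 and ENO3 the shares were 98.9% ± 0.803 and 99.4% ± 0.091, and for PGAM2 among PGAM1 and PGAM2 98.8% ± 1.19 and 99.3% ± 0.314. PFKM took 98.9% ± 0.424 of the counts of PFKM, PFKL and PFKP in the High MB group, from 98.1% to 99.2%, and 99.3% ± 0.163 in the Low MB group, from 99.1% to 99.6% (SD, n = 6 throughout). The PFKM ranges overlapped, and their exact two-sided permutation p was 0.0152, or 0.0649 adjusted over the 5 shares compared. Without High MB pig 2 the difference of the PFKM share went from -0.432 to -0.272 percentage points, that of the ENO3 share from -0.430 to -0.109 and that of the PGAM2 share from -0.523 to -0.0437.

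The LDHB share of LDHA and LDHB counts was 0.0287% ± 0.0133 in the High MB group and 0.0112% ± 0.00708 in the Low MB group (SD, n = 6). The exact two-sided permutation p was 0.0260, with the same adjusted value of 0.0649. The other 3 shares had exact permutation p of 0.0541 (ALDOA), 0.121 (ENO3) and 0.392 (PGAM2). A share within a library does not depend on scaling, but the LDHB share carries the doubt about its locus. It was 0.0132% against 0.00531% between the groups' deep libraries and 0.0365% against 0.0172% between their standard libraries. Over both groups it averaged 0.00848% in deep and 0.0282% in standard libraries, with an exact permutation p of 0.00758, or 0.0379 adjusted over the 5 shares. The same exact permutation test between depth classes gave adjusted p of 0.104 for PGAM2, 0.300 for both ENO3 and PFKM, and 0.626 for ALDOA.

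**Figure D5:**
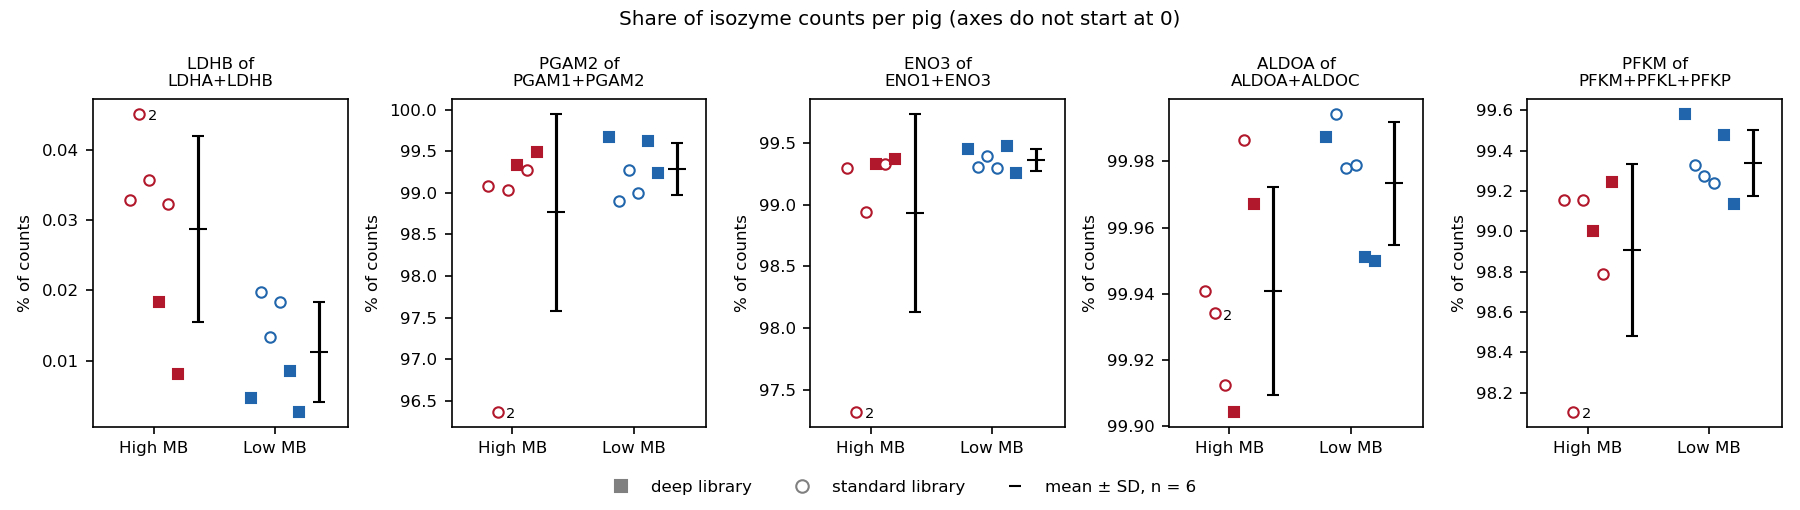
Percent of the counts of an isozyme set that the named gene took in each pig, by group, with deep libraries as filled squares, standard libraries as open circles and the mean ± SD of 6 pigs in black; axes do not start at 0. High MB pig 2, marked 2, is lowest for the PGAM2, ENO3 and PFKM shares, and the groups overlap in all 5 panels.

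Of 18 other genes of the pathway that were listed (hexokinases, glucose phosphate isomerase and further isozymes), 16 had a row and 12 were tested. None was called, 9 had a log2 FC above 0 and 3 below it, where 53.1% of all genes lay, and their median was 0.30 against -0.02 over all genes. An unadjusted p under 0.05 with a higher level in the High MB group was found for 2 genes (PFKL and HK1), against 5.33% of all genes, and with a lower level for 0, against 3.13%. With High MB pig 2 left out, 8 were above 0 and 4 below it, where 50.9% of all genes then lay, and the median was 0.09. Which genes passed that limit changed with the fit. It was passed by PFKL and LDHD, both higher, and by HK2, lower at -0.71 (SE 0.25), without High MB pig 2, and by PFKL, ALDOC and LDHD, all higher, with depth class in the fit. PFKL, the liver-type phosphofructokinase, had 16.7 ± 3.73 CPM in the High MB group and 11.9 ± 2.44 CPM in the Low MB group, with a log2 FC of 0.49 (SE 0.17, edgeR adjusted p = 0.563). HK1, the ubiquitous hexokinase, was at 0.81 (SE 0.34) and reached its highest value, 36.4 CPM, in High MB pig 2, with at most 12.8 CPM elsewhere. Without that pig HK1 was at 0.37 (SE 0.23), and its exact permutation p over all 12 pigs was 0.0758.

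GPI, the isomerase that makes fructose 6-phosphate, had 1160 ± 192 CPM in the High MB and 1353 ± 251 CPM in the Low MB group (SD, n = 6). Its log2 FC was -0.22 (SE 0.15), and -0.13 without High MB pig 2. The isozymes ALDOC, PGAM1, ENO1 and PFKP had log2 FC of 0.75, 0.37, 0.23 and 0.16, with edgeR adjusted p between 0.681 and 0.774. ENO2, the neuronal enolase, was at -0.64 (SE 0.51) on 10 to 104 counts per pig. PGAM1 and ENO1 had their highest values, 55.8 and 154 CPM, in High MB pig 2, and were at 0.07 and 0.06 without it. With depth class in the fit ALDOC was at 1.15. ENO4, PKLR, LDHC and HKDC1 did not pass the filter on low counts, and PGK2 and PGAM4 had no row under these symbols.

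Of 22 listed genes that control or branch from glycolysis, 21 were tested, 11 with a log2 FC above 0 and 10 below it, where 53.1% of all genes lay, and the median was 0.04. Without High MB pig 2, 10 were above 0 and 11 below it, where 50.9% of all genes then lay, with a median of -0.01. With depth class in the fit 11 were below 0, against 53.3% of all genes, with a median of -0.001. None had an unadjusted p under 0.05 between the groups in edgeR, which 8.46% of all genes reached, and 0 were called by it. Between depth classes, 4 were lower and 2 higher in the deep libraries at an unadjusted p under 0.05, against 8.08% and 5.78% of all genes. The lowest was PDK4, a kinase that switches off pyruvate dehydrogenase and so spares pyruvate, with a log2 difference of -1.80 (edgeR adjusted p = 0.159). The other lower genes were PDK1 at -0.73 and PDK2 at -0.46, kinases of the same family, and MPC2, a subunit of the mitochondrial pyruvate carrier, at -0.38. The higher genes were GPD1, the cytosolic glycerol 3-phosphate dehydrogenase, at 0.69 and PDK3 at 0.37.

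Values of fiber markers were set beside those of the enzymes. Of 9 tested fast fiber markers, 8 were below 0 between the groups, against 53.1% of all genes, with a median log2 FC of -0.20 against -0.02. At an unadjusted p under 0.05 in edgeR 1 was lower in the High MB group, against 3.13% of all genes. This count was 0 without High MB pig 2 and 0 with depth class in the fit. All 9 were above 0 in the deep libraries, against 48.6% of all genes, and 7 of them were higher at an unadjusted p under 0.05, against 5.78%. Of 7 tested slow fiber markers, 7 were above 0 between the groups, with a median of 0.51, and 5 were higher at an unadjusted p under 0.05, against 5.33% of all genes. In the deep libraries 5 of these 7 were above 0, with a median of 0.05 and 0 at an unadjusted p under 0.05 in edgeR. Of 7 skeletal muscle markers, 5 were below 0 between the groups, against 53.1% of all genes, and 0 had an unadjusted p under 0.05 in edgeR. Their median was -0.17, and -0.08 without High MB pig 2. In the deep libraries 2 of the 7 were above 0 and the median was -0.23, with 1 higher and 1 lower at that limit. Leaving out High MB pig 2, 5 of the 9 fast markers were below 0 between the groups, with a median of -0.07, and all 7 slow markers were above 0, with a median of 0.62. With all pigs kept, the summed level of the slow markers ran from 6531 CPM, in High MB pig 2, to 12730 CPM in the High MB group. In the Low MB group it ran from 4961 to 8513 CPM. The MYH genes that define fiber types, MYH1, MYH2, MYH4 and MYH7, had no row under these symbols. The part of fiber makeup in the enzyme values was not tested.

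Markers of other cells were not called either. All 6 adipocyte, 6 macrophage, 6 fibroblast, 4 endothelial and 2 erythrocyte genes tested had a log2 FC above 0, with 2, 4, 3, 0 and 2 of them at an unadjusted p under 0.05. Of all genes, 53.1% lay below 0 and 5.33% were higher at that limit. These genes were again all above 0 without High MB pig 2, with 3, 2, 3, 0 and 2 at that limit, against 5.80% of all genes. The summed macrophage level was 34.3 to 109 CPM in the High MB and 20.8 to 43.4 CPM in the Low MB group. The adipocyte sum was 175 to 366 against 111 to 344 CPM, the fibroblast sum 630.1 to 1118 against 326 to 828 CPM, the endothelial sum 114 to 157 against 70.1 to 175 CPM, and the erythrocyte sum 66.4 to 146 against 38.3 to 84.3 CPM. All these sums overlapped between the groups, and their part in the enzyme values was not tested.

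Within a group, no enzyme had a correlation with measured myoglobin content that passed an exact test. Over the 20 relations (10 genes in 2 groups of 6 pigs), Pearson's r ran from -0.57 to 0.51 in the High MB and from -0.57 to 0.38 in the Low MB group. Spearman's rho ran from -0.60 to 0.09 and from -0.43 to 0.26. The smallest exact permutation p of r was 0.188, with 0.829 as the smallest after adjustment over the 20 relations. With the 2 pigs farthest from the median myoglobin left out, r moved by 0.5 or more in 7 of the 20 relations, each then on 4 pigs.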

How the data were processed

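RNA was extracted, and paired-end libraries were sequenced, from 1 longissimus dorsi sample per pig. Per the labels and the study's methods, the authors used Trim Galore for trimming and HISAT2 for alignment to Sscrofa11.1, and deposited raw HTSeq counts per gene, with no normalization. The annotation release and strand setting are not given in the sources used here. Summary rows of the counter were kept out of library sizes and tests; they held 46.4% to 47.7% of reads as outside any gene. Tables by transcript were not used.

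Pigs were grouped by the group and individual number in their label. edgeR 4.0.16 (TMM, filterByExpr, glmQLFit and glmQLFTest, R 4.3.3) was fitted on all genes with no covariate, and p-values were adjusted by Benjamini-Hochberg over all 13373 genes tested. DESeq2 1.42.0 was an alternative, and both were tested on simulated data. Standard errors came from the test statistic. CPM used TMM scaling and log2 CPM a prior count of 2. Exact permutation tests used all 924 regroupings of the pigs (792 for deep against standard). The p-values measure the spread between pigs. Intervals cover counting error only. Sequences, positions and mRNA lengths are RefSeq Sscrofa11.1, and copies were sought with BLAST+ 2.17.0.

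The genes named are the 10 enzymes, the isozymes of the same reactions, genes of the other pathway lists with an unadjusted p under 0.05 between the groups, and the 10 genes most and 5 least alike. Of the list of other pathway genes, 2 are not reported here and were left out of its counts. GPI, HK2, LDHD, GPD1, MPC2 and PDK1 to PDK4 were named after their values were seen, and so were the fits of the lists without High MB pig 2. The members and lists were chosen with earlier results of these data known. Alternatives were other scalings, filters, robust estimation, depth class as a covariate, a replicate block, each depth class alone and each pig left out.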

Additional observations from a re-analysis of the deposited data

Results flagged for a closer look

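In the share of PGAM2 among PGAM1 and PGAM2 counts, High MB pig 2 lay far from the other High MB pigs at 96.4% (exact 95% interval 96.2% to 96.5%), where the next was 99.0%. Its gap to the nearest pig was 0.852 of the group's range. In the share of ENO3 among ENO1 and ENO3 counts, the same pig was at 97.3% (exact 95% interval 97.3% to 97.4%) and the next at 98.9%, a gap of 0.791 of the range. Both gaps exceed the 95% critical value of Dixon's test for 6 samples. With 30 groups of values examined, chance flags about 1 in 20.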

How the results depend on the processing

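The number of genes called was 0 in edgeR, 29 with DESeq2 and 1 in the deep libraries alone, and none of the 10 enzymes was called under any alternative run. The number of enzymes with an unadjusted p under 0.05 was 1, against 0 with at least 10 counts in every pig, where LDHB was not tested, 0 in the deep libraries alone, and 0 to 2 with each pig left out. The median log2 FC of the 10 enzymes stayed below 0, from -0.33 to -0.12 with each pig left out, at -0.12 and -0.15 for deep and standard libraries taken alone, and at -0.07 with depth class as a covariate and without High MB pig 2, an alternative added after seeing the data. In that last fit TPI1 (0.074), GAPDH (0.037) and PKM (0.0082) were above 0. In the standard libraries alone TPI1 (0.047) and PKM (0.028) were above 0. With each pig left out TPI1 ran from -0.13 to 0.048, and it was above 0 without High MB pig 2 and without Low MB pig 1. The cause was not tested.

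Differences in isozyme shares are in percentage points. For LDHB the difference was 0.0175 with the replicate block (exact paired p = 0.0625) and 0.00792 in the deep libraries. For PFKM it was -0.432 with the replicate block (exact paired p = 0.0625), -0.277 for deep and -0.480 for standard libraries. An exact permutation test of 2 against 3 deep libraries cannot go under 0.05. With each pig left out, the share differences ran from -0.669 to -0.0437 for PGAM2, from -0.518 to -0.109 for ENO3, from -0.499 to -0.272 for PFKM, from -0.0415 to -0.0251 for ALDOA and from 0.0142 to 0.0216 for LDHB. The individual numbers did not pair the pigs, since deviations of pigs with the same number correlated at -0.21 to 0.14. The replicate block left the count of genes called at 0. LDHB had few counts in deep and standard libraries alike, from 9 to 68 in a pig, which limits its precision.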
